A study of Mus musculus with 18 samples.

Results

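The miR-297, miR-466, miR-467 and miR-669 miRNAs of the mouse come mostly from 1 intron of Sfmbt2, a Polycomb-related gene, and were followed here across fibroblasts and B cells with different levels of the oncogenic miR-17~92 cluster. Members were chosen by name, with earlier results of these data known. They are every row of the deposited tables called miR-297, miR-466, miR-467 or miR-669 with any letter, copy number or arm. Rows with identical values in every library were counted once. This gave 64 rows and 56 distinct members of 1204 miRNAs in 9 libraries of mouse embryonic fibroblasts (MEF) of the miR-17~92 set. It gave 74 rows and 65 distinct members of 1265 in 6 further MEF libraries, and 4 rows and 3 distinct members of 756 in 3 libraries of splenic B cells. The names total 74 over the sets, and 10 of them are listed in the second MEF set alone.

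All 18 libraries are labelled with the Eu-myc strain, and the cells are called isogenic. In MEF the miR-17~92 cluster was floxed and intact (fl/fl, libraries FL3, FL4 and FL5), deleted (d/d, DEL1 to DEL3) or overexpressed (OV, libraries OV1, OV2 and OV4), and B cells had the same 3 levels with 1 library each. The second MEF set took cells that all lack miR-17~92 and gave them an empty plasmid (Empty, E1 to E3) or miR-290~295 (miR-290 1 to 3), the main miRNA cluster of mouse embryonic stem cells. The labels do not say how OV was made, give no age, and do not say whether replicates were separate cultures, so p-values measure the spread between these libraries, which may be technical.

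Sfmbt2 is known as an imprinted gene, expressed from the paternal allele in extraembryonic tissue, and its intronic miRNA cluster, special to rodents, is known for its part in placental growth. The hairpins arose by repeated duplication, and their mature sequences are built from runs of UG, CA and UA repeats, so that many differ by few bases. A mature miRNA is cut from the 5p or the 3p arm of its hairpin, and the bases of its seed, positions 2 to 8, set most of what it binds. Such near copies can share reads, and the handling of reads matching several copies is not stated.

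Sfmbt2 lies at chr2:10370510-10595253 on the plus strand of GRCm38 in the GENCODE annotation, and the intron at chr2:10461473-10523944 holds 71 hairpins of these names within 51.6 kb, all on the strand of the gene. Another 10 hairpins with these names lie on other chromosomes. Of the 56 distinct members of the first MEF set, 44 matched hairpins in the intron alone, 6 matched hairpins elsewhere alone and 5 matched both. The remaining member, miR-466a-3p, matched no hairpin by name. The intron also holds a hairpin named Mir466 with no letter, 41.3 kb into the cluster. Whether miR-466a comes from that hairpin was not tested. The name of miR-669a covers 12 hairpins of the intron, miR-467a 10 and miR-466b 8, while miR-669c has 1. No build is stated for the tables, so the coordinates are those of the reference annotation, joined by name.

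RefSeq sequences (GRCm38.p6) were matched for 7 member names, all from hairpins outside the Sfmbt2 intron. They are shown because they are the members whose repeats can be read here. Each is written 5′ to 3′ with its seed in capitals.
miR-466i-3p: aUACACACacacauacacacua
miR-466k: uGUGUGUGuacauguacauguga
miR-466j: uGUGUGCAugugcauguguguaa
miR-467f: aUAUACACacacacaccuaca
miR-467g: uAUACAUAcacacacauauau
miR-467h: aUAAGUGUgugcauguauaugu
miR-669n: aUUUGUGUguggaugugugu
Their positions are chr13:17747552-17747573 (plus strand, within Cdk13 but on its opposite strand) for miR-466i-3p and chr3:85467396-85467418 (plus strand) for miR-466k. The 7 seeds all differ, so that a shared number in the name did not mean a shared seed. Both kinds of repeat are seen, CA in the 3p arm of miR-466i and UG in miR-466k.

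RefSeq gives 2 promoter windows for Sfmbt2. The upstream one is shown because 22 of the 29 intronic members tested rose in OV and 26 of 29 in d/d MEF. Over all miRNAs tested, 15.6% were higher in OV and 30.7% in d/d. The part of the promoter in these rises was not tested. The upstream window runs over chr2:10370201-10370500 on the plus strand of GRCm38.p6, with CG dinucleotides in capitals. It spans 250 bases before to 50 after a RefSeq start that lies upstream of the GENCODE start given above.
Sfmbt2 promoter: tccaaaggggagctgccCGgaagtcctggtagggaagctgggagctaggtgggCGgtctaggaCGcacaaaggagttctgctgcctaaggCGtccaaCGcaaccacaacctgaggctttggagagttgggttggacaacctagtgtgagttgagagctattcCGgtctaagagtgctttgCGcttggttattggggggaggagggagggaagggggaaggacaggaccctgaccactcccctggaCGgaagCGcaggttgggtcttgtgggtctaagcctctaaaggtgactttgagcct
It holds 9 CG dinucleotides, against a median of 7 over 32851 promoter windows, and 54.2% of those windows hold fewer. The other Sfmbt2 window, chr2:10372186-10372485, holds 16, and 67.0% of windows hold fewer. The letters CACGTG, the same on both strands, are in neither Sfmbt2 window and are in 7.15% of all windows.

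Depth and identity of the libraries were as follows. Each library of the first MEF set held 17191892 to 24920911 miRNA reads, each of the second 43164128 to 58911475 and each B-cell library 10203586 to 10612256. The summed miR-17~92 members ran from 67773 to 97382 normalized counts in fl/fl, from 384055 to 460452 in OV and from 1419 to 1709 in d/d MEF, and in B cells they stood at 1256320, 4961450 and 31767, the last above the d/d MEF level. The miR-290~295 sum was 1580 to 2065 in Empty and 769474 to 902627 with the cluster. All 6 fibroblast markers were listed in MEF, with sums from 1115700 to 1517810 in the first set, and all 5 B-cell and blood markers in B cells, with sums from 141882 to 151275.

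The members were a small part of the miRNA pool, and a smaller one in B cells than in MEF. In ppm of miRNA reads, the distinct members took 78.6 to 99.4 in fl/fl, 196 to 254 in OV and 238 to 292 in d/d MEF. In the second MEF set they took 540 to 663 in Empty and 378 to 411 with miR-290~295, and in B cells 34.7 to 49.0. Of the B-cell share 78.2% to 97.7% was miR-466i-5p, whose hairpin lies outside the Sfmbt2 intron. The Wilson 95% interval was 74.6 to 82.9 for FL4 and 31.3 to 38.4 for fl/fl B cells, and such intervals cover counting error only. The sets were normalized apart and sequenced to different depths, so these shares were set side by side without a test.

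The summed level of the members was more than doubled in both MEF groups with altered miR-17~92. It was 1893, 1576 and 1678 normalized counts in FL3, FL4 and FL5, which gives 1716 ± 162 (SD, n = 3). It was 4657, 3917 and 3840 in OV1, OV2 and OV4, or 4138 ± 451 (SD, n = 3), and 4901, 5045 and 4525 in DEL1, DEL2 and DEL3, or 4824 ± 268 (SD, n = 3). No OV or d/d library reached down to the fl/fl libraries, and OV1 lay within the range of d/d. The fold over fl/fl was 2.41 in OV and 2.82 in d/d. With spike-in scaling these became 2.65 and 2.09, so that the order of OV and d/d turned.

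**Figure D1:**
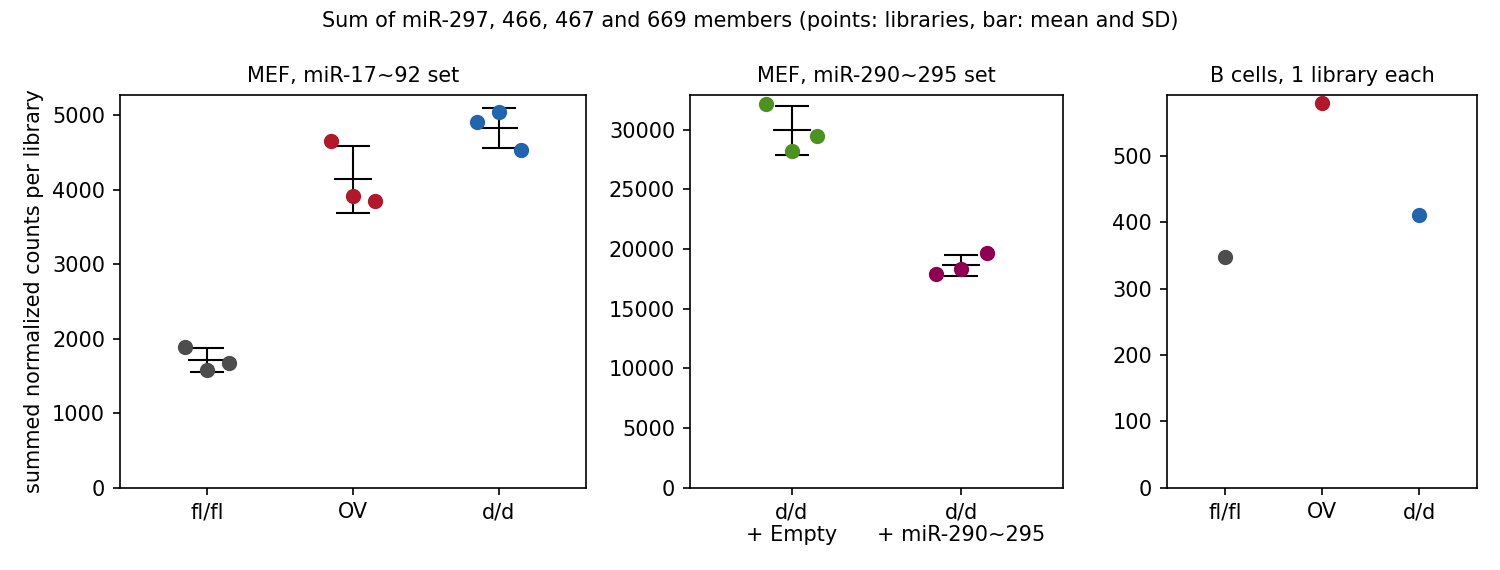
Summed normalized counts of the distinct members per library (y axis, linear from 0) by group (x axis) in the 3 sets, each with its own scale; points are libraries and bars the mean and SD of 3 in MEF, with 1 library per group in B cells. The OV libraries (3840 to 4657) and d/d libraries (4525 to 5045) all sit above the fl/fl libraries (1576 to 1893), and the miR-290~295 libraries (17916 to 19621) sit below the Empty libraries (28166 to 32169). The B-cell sums are mostly miR-466i-5p, whose hairpin lies outside the Sfmbt2 intron.

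miR-669c-5p, from a single hairpin 42.6 kb into the cluster, was the most abundant member in MEF. It made up 36.6% to 52.1% of the members' reads in the first set and 51.7% to 70.3% in the second. The next members by mean in the first set, miR-467c-5p at 234, miR-669a-5p at 221 and miR-467a-5p at 182 normalized counts, were several times lower than its 1520. Having more hairpins did not go with the highest level: the 33 intronic members with 1 hairpin ran from 0.405 to 1520 normalized counts with a median of 12.2, and the 11 with 2 or more ran from 2.34 to 221 with a median of 61.8.

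Testing was limited to miRNAs averaging 10 or more normalized counts in their set. In the first MEF set 34 of 56 members passed, in the second 44 of 65 and in B cells 2 of 3. This mean ran over all groups, so a low member could pass through the groups where it was high. Counts of members called, and the largest differences, may partly reflect this minimum. The 22 members left out of the first set had means from 0.232 to 6.85, the highest miR-466e-5p, and made up 1.46% of the members' total. The 21 left out of the second made up 0.300%. Differences are on the scale of log2 of the normalized count + 1, which understates the change of low members, and adjusted p-values are from limma with Benjamini-Hochberg adjustment over all kept miRNAs.

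With miR-17~92 overexpressed, members of all 4 names rose. Of 34 members tested, 26 were higher in OV than in fl/fl MEF, none was lower and 8 did not pass, while over all 662 miRNAs tested 15.6% were higher and 15.7% lower. The median difference of the members was 1.28, against −0.07 over all miRNAs. By name, 2 of 2 miR-297, 9 of 14 miR-466, 6 of 6 miR-467 and 9 of 12 miR-669 members rose. The 3 OV libraries all lay above the 3 fl/fl libraries for 29 members, where 24.5% of all miRNAs did so, and none lay wholly below, where 24.2% did. With spike-in scaling the median over all miRNAs moved to 0.07 and that of the members to 1.41, and 27 members rose. The calls over all miRNAs then went from 103 higher and 104 lower to 112 and 44.

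miR-669c-5p stood at 839, 659 and 745 normalized counts in FL3, FL4 and FL5 and at 1706, 2041 and 1513 in OV1, OV2 and OV4. All OV libraries were above all fl/fl libraries, and the difference was 1.22 ± 0.15 (SE, limma adjusted p = 0.00036). miR-467c-5p, from a hairpin 7.27 kb into the cluster, went from 109, 95.1 and 104 to 287, 217 and 258, a difference of 1.29 ± 0.16 (limma adjusted p = 0.00036). miR-669a-5p, whose row equals that of miR-669p-5p, went from 132, 112 and 104 to 383, 207 and 298, again without overlap, by 1.30 ± 0.23 (limma adjusted p = 0.0030).

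The largest rises were in members of low count. miR-297a-3p, which shares its row with miR-297b-3p and miR-297c-3p, went from 3.07, 3.44 and 2.24 to 16.9, 14.9 and 18.7, by 2.19 ± 0.36 (limma adjusted p = 0.0022). It rested on 8 reads in the 3 fl/fl libraries and 47 in OV, and the ratio of 5.77 has an exact 95% interval of 2.70 to 14.1 for counting error. After it came miR-669p-3p at 1.96, miR-466i-3p at 1.92, miR-466a-3p at 1.69 and miR-466d-3p at 1.63. Of these, miR-466d-3p did not pass without FL5, with a limma adjusted p of 0.051 against 0.014 with all libraries. miR-297a-3p, miR-669p-3p and miR-466i-3p averaged 2.91, 4.38 and 5.37 normalized counts in fl/fl. They met the minimum of 10 only through groups where they were higher, so the minimum favoured their rise.

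The abundant miR-466 3p rows rose together and may be much the same reads. miR-466b-3p, miR-466c-3p and miR-466e-3p differ by a few reads per library, and miR-466p-3p has the same row as miR-466c-3p. miR-466b-3p stood at 41.9, 26.3 and 45.9 normalized counts in fl/fl and 118, 71.0 and 102 in OV, a difference of 1.33 ± 0.25 (limma adjusted p = 0.0038). Their counts are therefore not 3 independent observations.

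**Figure D2:**
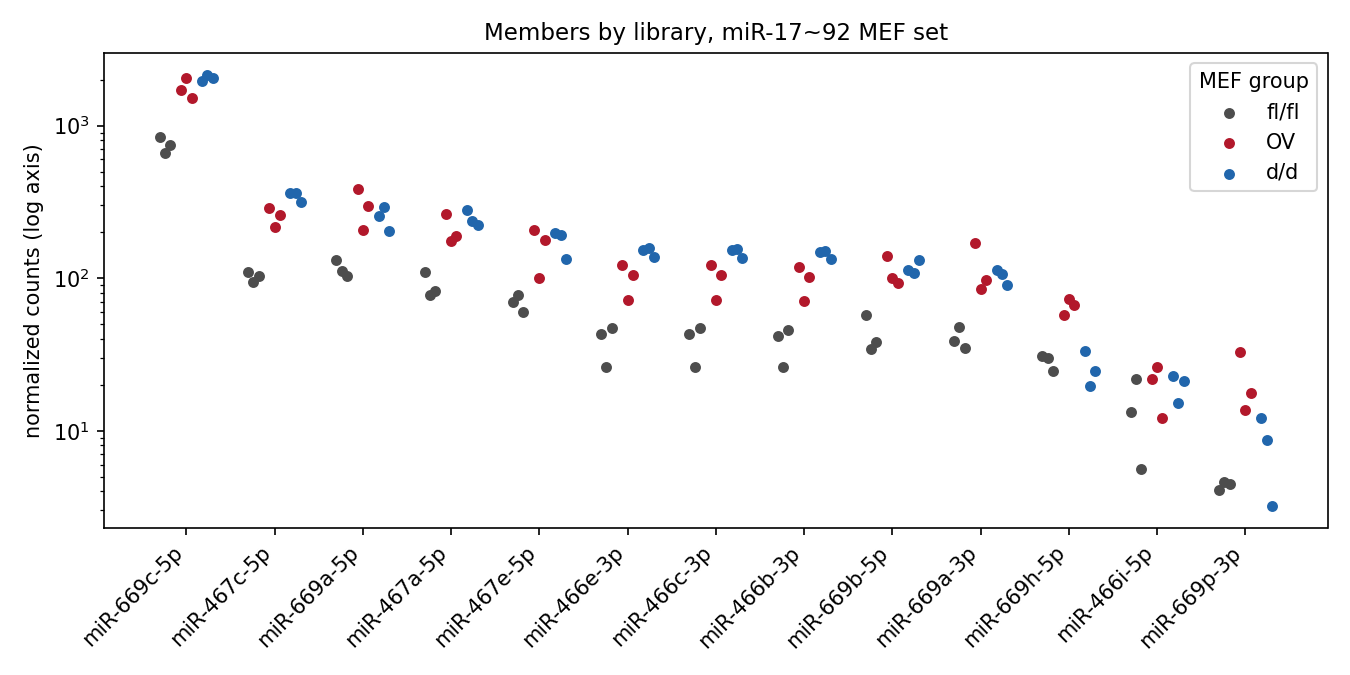
Normalized counts (y axis, log scale) of the 10 most abundant members and of miR-669h-5p, miR-466i-5p and miR-669p-3p in each library of the miR-17~92 MEF set, with fl/fl in grey, OV in red and d/d in blue. For the 10 abundant members the fl/fl points lie below both other groups, while miR-669h-5p is high in OV alone (57.5 to 73.2, against 24.6 to 30.7 in fl/fl and 19.6 to 33.4 in d/d).

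With miR-17~92 deleted, the members were higher as well. Of 34, 30 were higher in d/d than in fl/fl MEF, none was lower and 4 did not pass, while 30.7% of all 662 miRNAs were higher and 27.6% lower. The median difference of the members was 1.45, against 0.02 over all miRNAs. By name, 2 of 2 miR-297, 13 of 14 miR-466, 6 of 6 miR-467 and 9 of 12 miR-669 members rose, and 29 lay above fl/fl in every d/d library, where 34.9% of all miRNAs did so, and none lay wholly below, where 33.1% did. With spike-in scaling the median over all miRNAs fell to −0.39 and that of the members to 1.03, with 26 members higher. The calls over all miRNAs then went from 203 higher and 183 lower to 147 and 283. The fl/fl libraries are shared with the OV comparison, so agreement between both sets of values is no independent support.

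miR-669c-5p stood at 1956, 2160 and 2062 normalized counts in DEL1, DEL2 and DEL3, all above fl/fl, a difference of 1.47 ± 0.15 (limma adjusted p = 2.1e-05). miR-467c-5p was at 360, 363 and 315, higher than fl/fl by 1.74 ± 0.16 (limma adjusted p = 1.0e-05). miR-466b-3p was at 145 ± 10.3 (SD, n = 3) against 38.1 ± 10.3, higher by 1.93 ± 0.25 (limma adjusted p = 9.8e-05). Each of these 3 members was separated from fl/fl in every library.

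The largest rises after deletion were miR-466a-3p at 2.31 ± 0.30, miR-297a-3p at 2.22 ± 0.36, miR-466i-3p at 2.16 ± 0.36, miR-466h-3p at 2.00 ± 0.69 and miR-669e-5p at 1.99 ± 0.33 (SE). miR-466a-3p was at 14.3, 16.0 and 20.1 normalized counts in fl/fl and at 83.9, 98.1 and 78.7 in d/d (limma adjusted p = 9.0e-05). miR-466h-3p was at 14.3 in FL3 but 2.29 and 1.12 in FL4 and FL5, and at 18.5, 17.4 and 18.1 in d/d. Its limma adjusted p of 0.028 rose above 0.05 when any one of FL4, FL5, DEL1, DEL2 or DEL3 was left out, with values of 0.087, 0.11, 0.069, 0.063 and 0.065, and it was 0.065 with spike-in scaling. edgeR and DESeq2 on whole reads gave 0.057 and 0.070 for it.

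**Figure D3:**
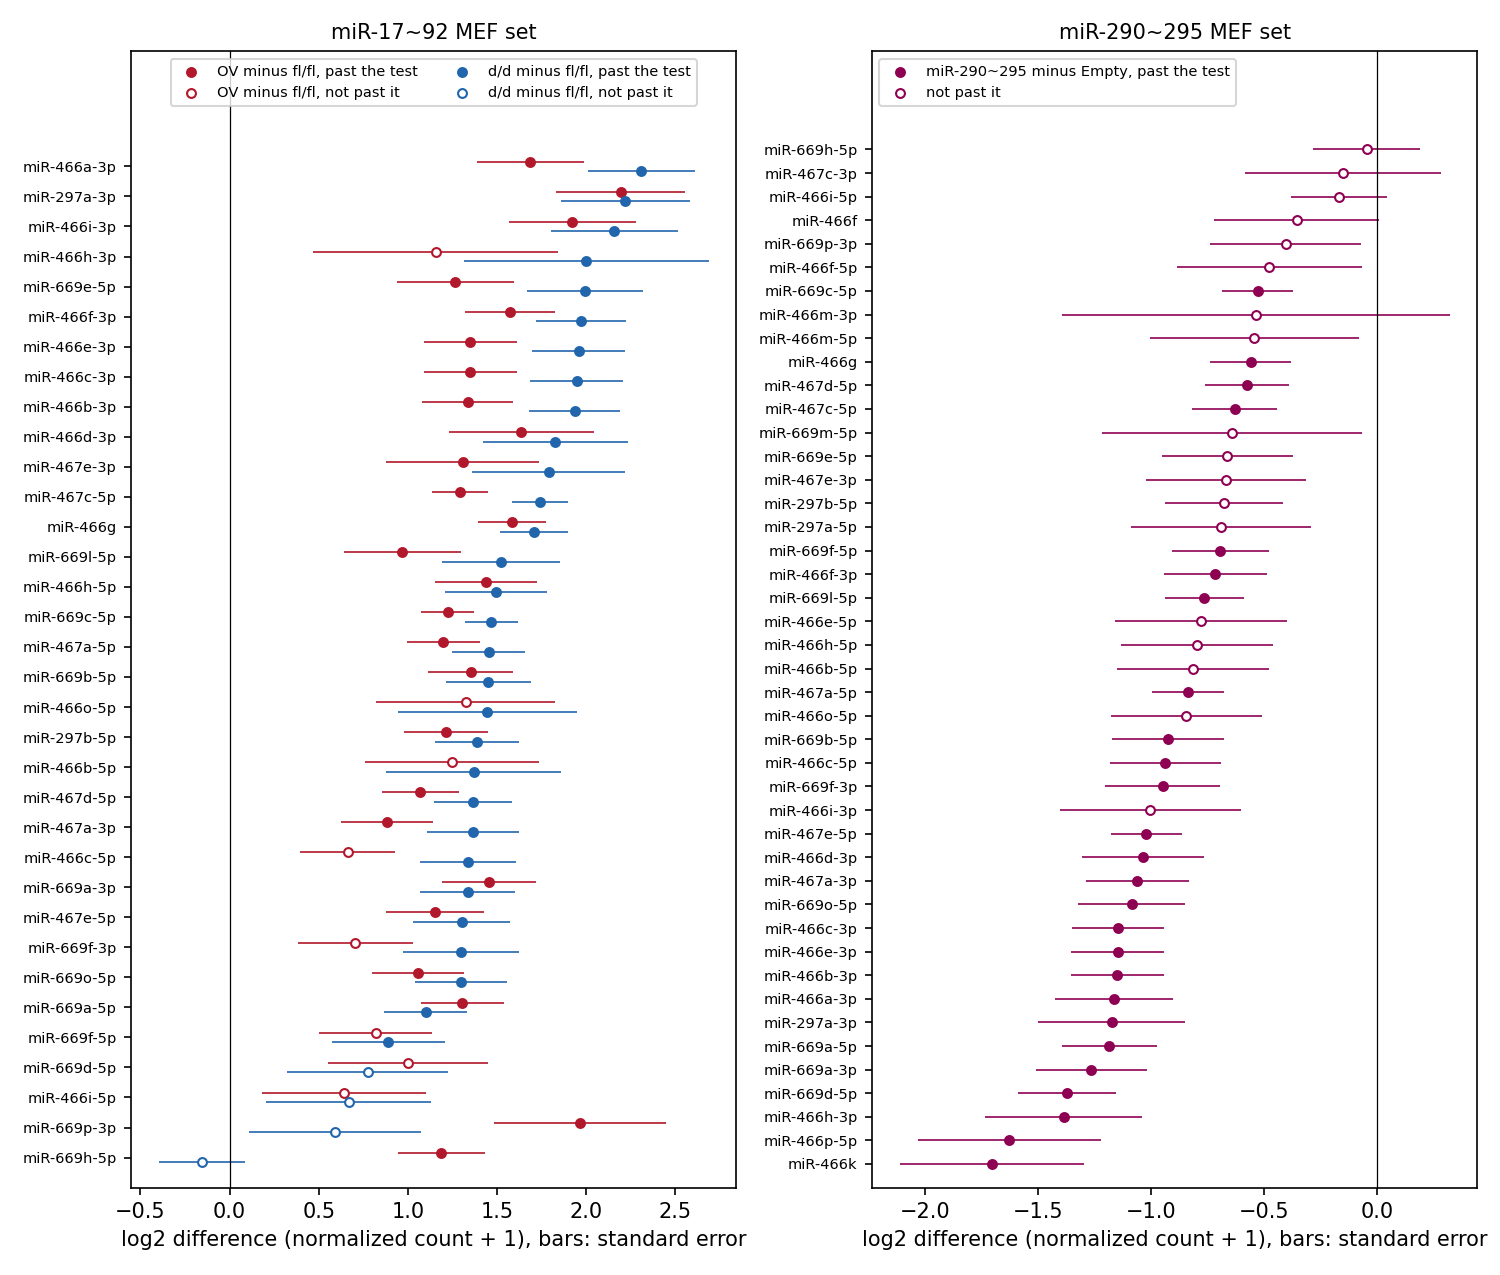
Log2 differences (x axis, normalized count + 1) with standard errors for every tested member (y axis), OV and d/d against fl/fl on the left and miR-290~295 against Empty on the right; filled points passed the test. On the left all points but 1 lie between 0.59 and 2.31, the exception being miR-669h-5p after deletion at −0.16, and on the right every point lies below 0.

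Markers of other cell types also differed between these MEF groups. The 4 neural miRNAs summed to 11524 to 12886 normalized counts in fl/fl, 31756 to 49254 in OV and 25804 to 29272 in d/d, and those of muscle to 35575 to 35874, 24141 to 30770 and 18160 to 21650, with miR-133a-3p not listed. The epithelial sum was lower in both, 272 to 280 in fl/fl, 163 to 200 in OV and 64.6 to 98.8 in d/d, with miR-141-3p not listed. The 4 listed of 5 B-cell and blood markers, with miR-223-3p not listed, summed to 8053 to 8500 in fl/fl, 5773 to 9716 in OV and 4160 to 5815 in d/d, where d/d lay below fl/fl without overlap. The 2 endothelial miRNAs stood at 2034 to 2230, 1959 to 2150 and 966 to 1067. Of the 8 embryonic stem cell miRNAs 1 was listed, at no more than 4.58 in any library. The part of these differences in the members' rise was not tested, and in bulk RNA more cells of a type cannot be told from more miRNA per cell.

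Between OV and d/d, which lie at the opposite ends of the miR-17~92 range, few members differed. Of 34, 2 were higher and 1 lower in OV than in d/d, where 26.7% of all miRNAs were higher and 25.7% lower. The median difference was −0.24, against 0.02 over all miRNAs. With spike-in scaling the members' median was 0.32 while that of all miRNAs was 0.60, so the members' median lay below that of all miRNAs with either scaling, and 3 members were higher and none lower. The calls over all miRNAs went from 177 higher and 170 lower to 333 and 120. Without OV1 the count was 1 higher and 7 lower, without DEL2 1 higher and none lower, without OV2 or DEL1 2 higher and none lower, and with DESeq2 on whole reads 2 higher and 4 lower. miR-669c-5p differed by −0.24 ± 0.15 (SE, limma adjusted p = 0.20), which turned to 0.32 with spike-in scaling.

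miR-669h-5p, from the last hairpin of the cluster 51.5 kb after the first, had the lowest adjusted p of the members between OV and d/d. It stood at 57.5, 73.2 and 67.0 normalized counts in OV1, OV2 and OV4, at 30.7, 29.8 and 24.6 in FL3, FL4 and FL5 and at 33.4, 19.6 and 24.5 in DEL1, DEL2 and DEL3. OV was above both other groups without overlap, and d/d overlapped fl/fl. It was higher in OV than in d/d by 1.34 ± 0.24 (SE, limma adjusted p = 0.00078), and this held in each alternative that kept it, with adjusted p from 3.7e-05 to 0.0043. Against fl/fl it rose in OV by 1.19 ± 0.24 (limma adjusted p = 0.0050), while d/d differed by −0.16 ± 0.24 (limma adjusted p = 0.60).

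miR-669p-3p stood higher in OV too, on few reads. It was at 32.7, 13.7 and 17.6 normalized counts in OV, at 4.09, 4.58 and 4.48 in fl/fl and at 12.1, 8.72 and 3.19 in d/d, from 61, 12 and 32 reads. The difference of 1.37 ± 0.48 between OV and d/d had a limma adjusted p of 0.035, which was 0.055 without DEL2, 0.12 without DEL3 and 0.060 when only these 6 libraries were fitted. Its 5p partner shares a row with miR-669a-5p, which stood at 257, 292 and 205 in d/d, a rise of 1.10 over fl/fl. miR-467c-5p was lower in OV than in d/d by 0.45 on the log2 scale, a difference of −0.45 ± 0.16 (limma adjusted p = 0.034). This did not pass without OV2 (0.11), without DEL1 (0.091), without DEL2 (0.11), without a minimum (0.068), with medians re-centred (0.18) or with only the 6 libraries fitted (0.069), and with spike-in scaling it was 0.12 in the other direction.

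Position along the intron was compared for members with 1 hairpin. The 19 of them tested spanned the cluster from 0.566 kb to 51.5 kb. In OV they were higher than fl/fl by 0.71 to 1.63 with a median of 1.22, and in d/d by −0.16 to 2.00 with a median of 1.47. The lowest d/d value was that of miR-669h-5p, and the 4 nearest tested members, miR-669o-5p at 47.6 kb, miR-466g at 47.9 kb and both arms of miR-466h at 48.2 kb, differed by 1.30 to 2.00. The highest of these is miR-466h-3p, whose call did not hold under the alternatives given above.

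**Figure D4:**
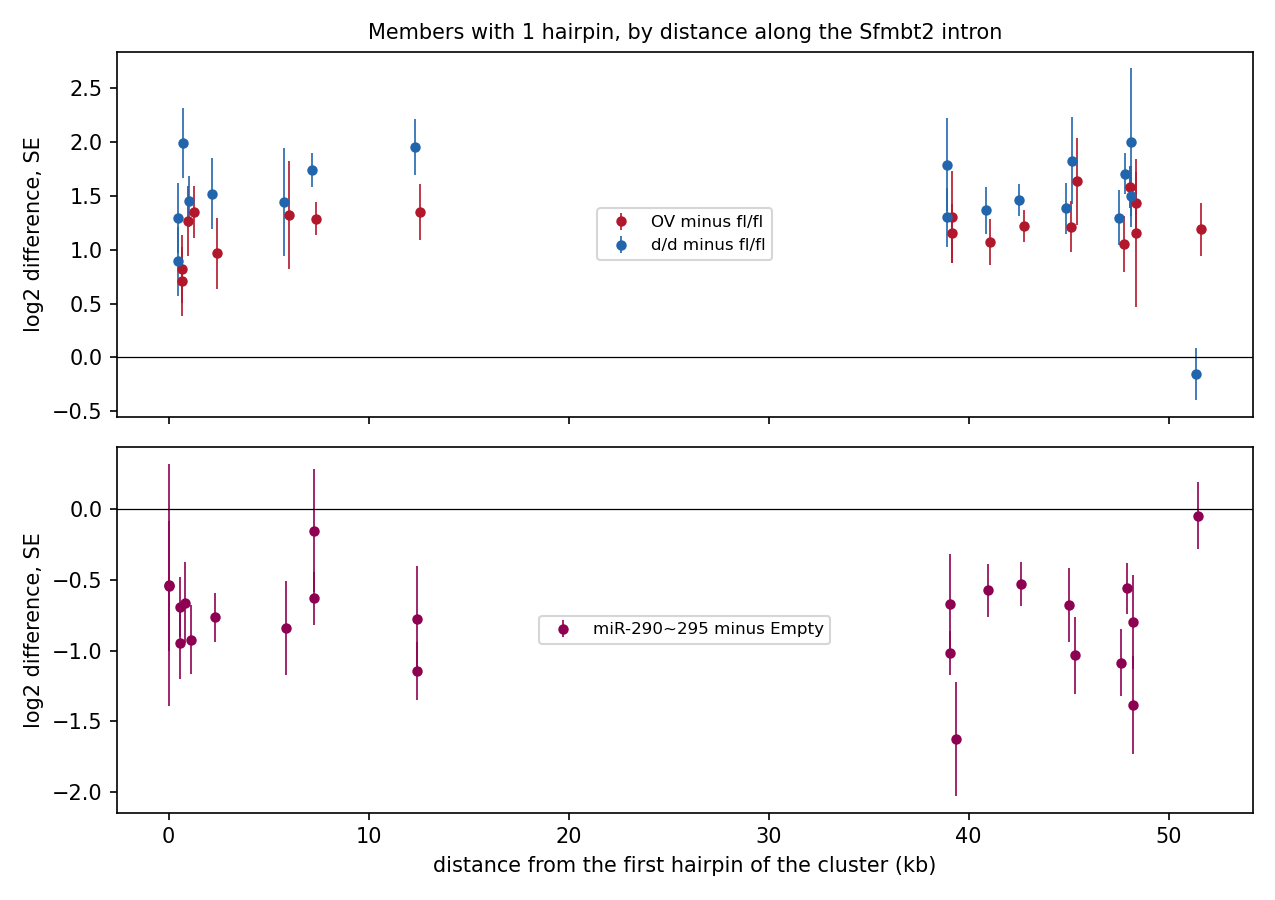
Log2 differences with standard errors (y axis) of members with 1 hairpin in the Sfmbt2 intron against the distance from the first hairpin (x axis, kb), with OV (red) and d/d (blue) over fl/fl above and miR-290~295 over Empty below. In the upper panel members from the start to 48.2 kb differ from fl/fl by 0.71 to 2.00, and the last, miR-669h-5p at 51.5 kb, is at 1.19 in OV, at −0.16 in d/d and at −0.05 with miR-290~295.

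Of the members with hairpins only outside the intron, 2 were tested in the first MEF set, both from miR-466i on chromosome 13. Its 5p arm took from 34.4% to 86.4% of its reads over the 9 libraries. miR-466i-3p went from 8.19, 3.44 and 4.48 normalized counts in fl/fl to 26.8, 17.2 and 23.1 in OV and 33.4, 26.2 and 20.2 in d/d, with no overlap with fl/fl, by 1.92 ± 0.36 and 2.16 ± 0.36 (limma adjusted p = 0.0032 and 0.00045). miR-466i-5p was at 13.3, 21.8 and 5.60 in fl/fl, at 21.8, 26.3 and 12.1 in OV and at 22.7, 15.3 and 21.3 in d/d. Its groups overlapped and it did not pass, with differences of 0.64 ± 0.46 and 0.67 ± 0.46 (limma adjusted p = 0.30 and 0.24). Whether it differed from the intronic members, of which 7 of 29 did not pass in OV, was not tested. Whether the reads of miR-466i-3p come from its own hairpin or from like repeats in the intron cannot be told from these tables.

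Expression of miR-290~295 in deleted MEF went with lower members. Of 44 tested, 26 were lower than with the empty plasmid, none was higher and 18 did not pass, while 22.3% of all 840 miRNAs were lower and 16.7% higher. The median difference was −0.80, against 0.02 over all miRNAs, and each of the 44 had a difference below 0. By name, 1 of 3 miR-297, 11 of 21 miR-466, 5 of 7 miR-467 and 9 of 13 miR-669 members fell, and 29 lay below Empty in every library, where 26.1% of all miRNAs did so, and none lay wholly above, where 23.6% did. Without miR-290 1 the count was 16, and without miR-290 3 it was 17. With spike-in scaling the median over all miRNAs was −0.46 and that of the members −1.28, with 36 lower. The calls over all miRNAs then went from 140 higher and 187 lower to 56 and 331.

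The summed level was 32169, 28166 and 29479 normalized counts in E1, E2 and E3 and 17916, 18328 and 19621 in miR-290 1, 2 and 3. The groups did not overlap, and Empty was 1.61-fold higher, or 1.91-fold without miR-669c-5p and 2.25-fold with spike-in scaling. miR-669c-5p stood at 19883, 16966 and 15227 in Empty and at 11611, 10714 and 13792 with miR-290~295, a difference of −0.53 ± 0.16 (limma adjusted p = 0.026). It did not pass without E2, miR-290 1 or miR-290 2, with adjusted p of 0.076, 0.089 and 0.083.

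Most of the other abundant members fell further. miR-669a-5p was at 1311, 1276 and 1875 normalized counts in Empty and at 665, 758 and 530 with miR-290~295, by −1.18 ± 0.21 (limma adjusted p = 0.0023). miR-467e-5p, from a hairpin 39.1 kb into the cluster, was at 778, 723 and 774 against 401, 375 and 346, by −1.02 ± 0.16 (limma adjusted p = 0.0012). miR-466b-3p was at 778, 666 and 896 against 290, 437 and 335, by −1.15 ± 0.21 (limma adjusted p = 0.0024). None of these 3 members overlapped between the groups.

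The largest fall was that of miR-466k, the UG-repeat member on chromosome 3 whose sequence is given above. It was at 12.4, 21.3 and 27.2 normalized counts in Empty and at 5.30, 6.19 and 4.36 with miR-290~295, a difference of −1.70 ± 0.41 (limma adjusted p = 0.010). It rested on 63 and 16 reads, and the ratio of 0.253 has an exact 95% interval of 0.136 to 0.443 for counting error. miR-466p-5p at −1.63, miR-466h-3p at −1.39, miR-669d-5p at −1.37 and miR-669a-3p at −1.26 followed. miR-466k and miR-466p-5p averaged 20.3 and 27.4 normalized counts in Empty but 5.28 and 7.88 with miR-290~295. Both met the minimum of 10 only through Empty, so the minimum favoured their fall. miR-466p-5p had a limma adjusted p of 0.059 without E2 and 0.012 with all libraries, and miR-466h-3p 0.051 without miR-290 1 and 0.012 with all.

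miR-669h-5p was among the 18 members that did not pass, and no test compared it with the others. It stood at 72.0, 68.2 and 53.4 normalized counts in Empty and at 53.0, 66.0 and 68.0 with miR-290~295, so the groups overlapped, with a difference of −0.05 ± 0.24 (limma adjusted p = 0.90). Neither arm of miR-466i passed: miR-466i-5p was at 100, 104 and 106 against 103, 75.3 and 99.4, by −0.17 ± 0.21, and miR-466i-3p at 107, 109 and 163 against 42.4, 122 and 44.5, lower by a fold of 2.00 (limma adjusted p = 0.57 and 0.075). Fibroblast markers were lower with miR-290~295 as well, with sums of 1843390 to 2126780 against 2960090 to 4227380 in Empty. Those of muscle stood at 44534 to 52494 against 62607 to 83554 and the endothelial at 2998 to 3350 against 3701 to 4442. The blood and epithelial sums overlapped between the groups, at 14096 to 18591 against 15304 to 20100 and at 210 to 243 against 239 to 271. The embryonic stem cell list, 5 of 8 listed, includes the overexpressed cluster and stood at 16808 to 24489 against 45.6 to 75.3. Neural markers were higher, at 191809 to 204175 against 83046 to 88270 with miR-124-3p not listed, and the part of any of these in the members' fall was not tested.

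The arm that held most reads differed between hairpin names, and for many of them it was the same in every library. In the first MEF set the 5p arm took over 50% of reads in every library for 4 of 5 miR-467 names and 4 of 6 miR-669 names, and the 3p arm for 5 of 9 miR-466 names, among names with at least 90 reads. miR-467c gave 95.4% to 100% of its reads from the 5p arm over the 9 libraries, and miR-669b 96.8% to 100%. miR-466e gave 2.33% to 14.8% from the 5p arm and miR-466f 0.901% to 14.6%, whereas miR-466o gave 87.5% to 100%. The 3p rows of miR-466b, miR-466e and miR-466p, among the 5 miR-466 names, are nearly the same. They hold 923, 950 and 947 reads in all and may count the same reads, so these names are not independent. The arm used by the miR-466e hairpin thus cannot be told here either. The 5p rows of miR-466o and miR-466b are nearly the same, with 114 and 108 reads in all, and may count the same reads. miR-466b itself gave 6.82% to 23.3% from the 5p arm, so the arm used by the miR-466o hairpin cannot be told here. In the second set miR-669c gave at least 99.98% from the 5p arm in every library. Names that share a row, such as miR-467a and miR-467b on the 5p arm, count the same reads in both.

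**Figure D5:**
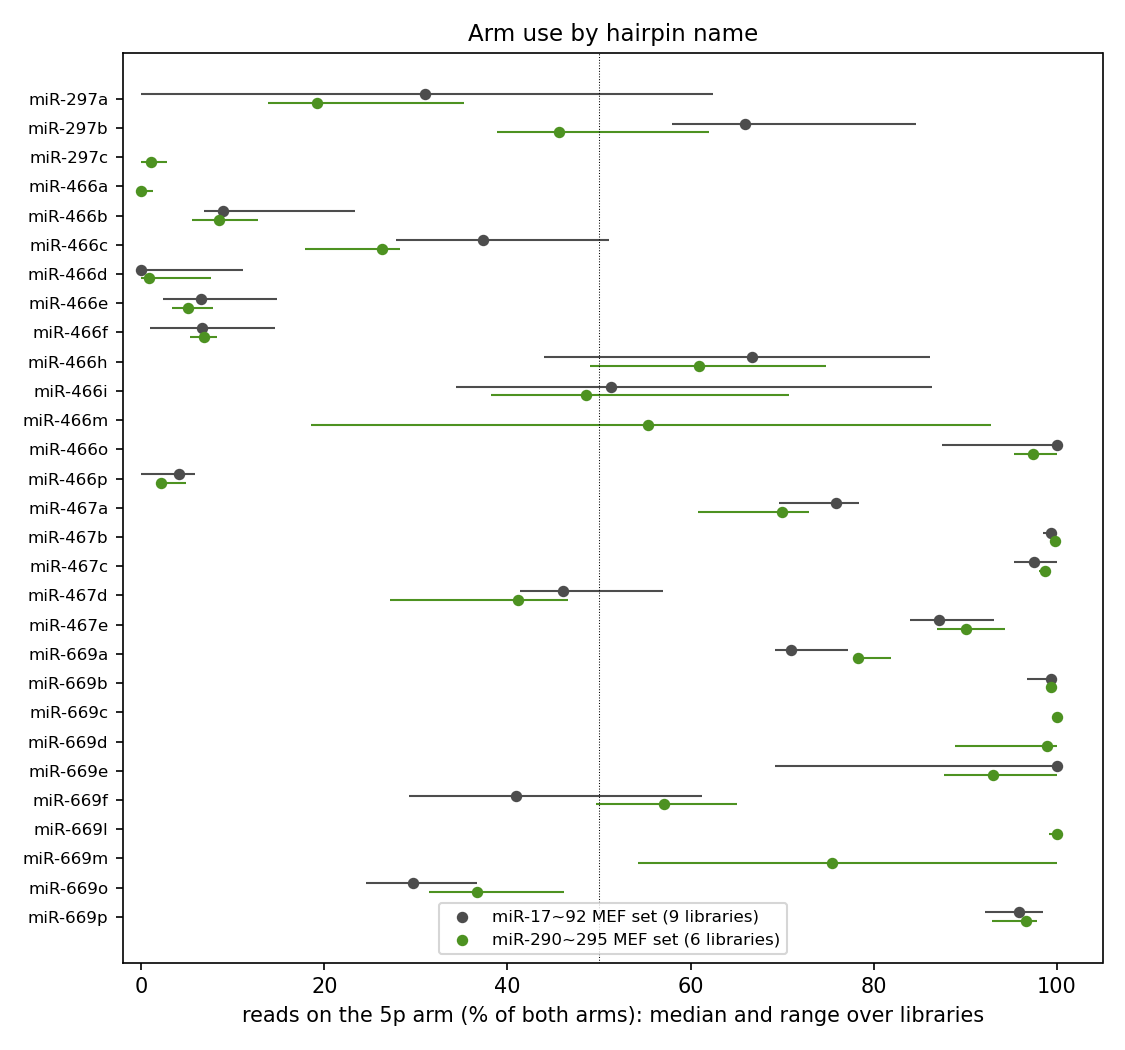
Reads on the 5p arm as a percentage of both arms (x axis) for each hairpin name with at least 90 reads (y axis), as the median and the range over the 9 libraries of the first MEF set and the 6 of the second. miR-467 and miR-669 names lie mostly above 50% and most miR-466 names below it, with miR-466o at 87.5% to 100% as the exception furthest to the right. The 5p row of miR-466o is nearly that of miR-466b and may count the same reads.

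In B cells, which had 1 library per group and so no test, the members looked different. Only miR-466i-5p, miR-669c-5p and miR-669a-5p, with its copy in name miR-669p-5p, were listed. The hairpin of miR-466i-5p lies outside the Sfmbt2 intron, yet this member made up 97.3% of the members' total in fl/fl, 78.2% in d/d and 97.7% in OV. Going by name, the B-cell totals are thus mostly not a level of the intronic cluster. Whether the reads of miR-466i-5p come from its own hairpin or from like repeats in the intron cannot be told here. miR-466i-5p led, with 337 normalized counts in fl/fl, 322 in d/d and 567 in OV, and exact Poisson 95% intervals of 303 to 374, 291 to 354 and 514 to 623 that cover counting error only. The OV value was 1.68 times that of fl/fl, short of the 2-fold used here as a rule of size, which 6.30% of the 476 kept miRNAs passed upward in OV.

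miR-669c-5p was at 88.1 normalized counts in the d/d B cells, from 111 reads, and at 9.43 in fl/fl and 10.7 in OV, from 10 and 8 reads. The exact Poisson 95% intervals were 72.5 to 106, 4.52 to 17.3 and 4.63 to 21.1. The ratio of d/d to fl/fl was 9.35, past the 2-fold rule, as were 16.2% of kept miRNAs upward in that pair. The 6 fibroblast markers summed to 8283 in the d/d library, 2039 in fl/fl and 1960 in OV. The listed 2 of 3 muscle markers summed to 184, 55.6 and 32.2, and the listed 2 of 4 neural markers to 1811, 16710 and 12080. The endothelial sums were 2824, 4172 and 7354 and the epithelial 12299, 11843 and 9452, and no embryonic stem cell marker was listed. The part of these markers in the difference was not tested. miR-669a-5p was at 1.59, 0 and 2.68 in d/d, fl/fl and OV, from 2, 0 and 2 reads, with an exact upper bound of 3.48 in fl/fl, where no difference was detectable at this depth.

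Other imprinted miRNAs are given for comparison, from lists chosen with these data known. The Dlk1-Dio3 region, a maternally expressed imprinted cluster, had 83 rows tested in the first MEF set. In OV 40 of them were lower than fl/fl and none higher, with a median of −0.92, and in d/d 81 were higher and none lower, with a median of 2.59. Between OV and d/d 82 of the 83 were lower in OV. The Sfmbt2 members, in the same comparisons, had medians of 1.28, 1.45 and −0.24. With miR-290~295, 76 of 91 Dlk1-Dio3 rows were lower and none higher, with a median of −1.07. The miRNAs of Igf2, H19 and Mest had 4 rows in the first set, of which 1 was lower in OV and 3 were higher in d/d, and 6 in the second, of which 2 were higher.

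miRNAs outside the members that hold UG repeats moved in both directions. Of 1679 mature sequences in the RefSeq table, 7 hold UGUGUGUG on the miRNA strand, and 5 of these are not members. They are printed, with the repeat in capitals, to show how like they are to miR-466k.
miR-574-5p: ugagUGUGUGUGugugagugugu
miR-672-5p: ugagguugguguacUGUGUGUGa
miR-32-3p: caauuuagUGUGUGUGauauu
miR-1187: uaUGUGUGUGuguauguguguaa
miR-3082-5p: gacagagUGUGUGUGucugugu
In the first MEF set 3 of them were tested, with none past the test in OV against fl/fl. miR-574-5p went from 975 ± 40.5 to 1453 ± 252 normalized counts (SD, n = 3) in OV, by 0.56 (limma adjusted p = 0.055), and was at 1129 ± 274 (SD, n = 3) in d/d, by 0.18 (limma adjusted p = 0.46). miR-672-5p fell in d/d, from 130 ± 6.86 to 55.2 ± 4.19 (SD, n = 3), by −1.22 (limma adjusted p = 0.00040). With miR-290~295 the directions were mixed, with miR-574-5p lower by −1.06 and miR-672-5p higher by 1.55 (limma adjusted p = 0.0051 and 0.0020).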

How the data were processed

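Each deposited value is a normalized signal: the authors counted reads for every mature miRNA and scaled each library by its own size factor. The submitters' processing notes name DESeq2 and give no version for it. No source used here states the aligner, counter, annotation or build. Small RNAs were gel-purified from total RNA with spike-ins and made into libraries with the NEBNext kit, per the labels' protocols. Values were whole multiples of 1 step per library (100% of 39111 values, to within 0.0001), which gave back the reads; 33 columns of rlog values were not used.

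The members and lists were chosen with earlier results of these data known. limma 3.58.1 (R 4.3.3) with a mean-variance trend was fitted to log2(normalized count + 1) of all miRNAs with a mean of at least 10, with group as the only term. The 9 libraries of the first MEF set share 1 spread, and an adjusted p under 0.05 was a call. The OV and fl/fl columns were matched to their groups by name, not to single replicates. Alternatives used spike-in tables, edgeR 4.0.16, DESeq2 1.42.0, other minimums and pseudocounts, and left out each library. The code was tested on simulated data. Members named are the 10 most abundant per MEF set, the 5 largest rises and falls per comparison, those against the majority, and those with a mean of at least 10 in B cells. Neighbours along the intron, miR-669h-5p in other comparisons and the arms were added after their values were seen.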

Additional observations from a re-analysis of the deposited data

How the results depend on the processing

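Against fl/fl, the members called numbered 22 to 27 in OV and 26 to 28 in d/d when each library was left out in turn, all of them higher. Over all miRNAs, leaving out a library gave 72 to 103 higher and 52 to 133 lower in OV. A minimum mean of 100 normalized counts left 5 members to test, and all 5 passed in both comparisons. Over all miRNAs kept at that minimum, 64 were higher and 92 lower in OV, and 128 and 144 in d/d. Without a minimum, 25 of 56 members were called in OV and 31 of 56 in d/d, all higher, and 22 of 65 with miR-290~295, all lower. The calls over all miRNAs were then 99 higher and 109 lower in OV, 212 and 191 in d/d, and 124 and 173 with miR-290~295. Between OV and d/d, 3 members were called, 1 to 8 when a library was left out, 1 with a minimum of 100, 1 with only the 6 libraries compared and 6 with DESeq2. With miR-290~295, 16 to 27 were called when a library was left out. With spike-in scaling the log2 ratio of the members' sum was 1.06 for d/d against fl/fl, −1.17 for miR-290~295 against Empty and 0.34 for OV against d/d, which without it was −0.23. Without the most abundant member the miR-290~295 ratio was −0.94, against −0.68 with it. The median of OV against d/d turned from −0.24 to 0.32 with spike-in scaling, and so did miR-669c-5p to 0.32 and miR-467c-5p to 0.12. Leaving out 1 library moved miR-669h-5p from −0.35 to 0.0174 for d/d over fl/fl, and from −0.17 to 0.0652 with miR-290~295, none of them past the test. The cause of these shifts was not tested. With medians re-centred, calls over all miRNAs were 83 higher and 153 lower (OV), 162 and 245 (d/d), 208 and 142 (OV against d/d) and 107 and 211 (miR-290~295); with edgeR, OV against fl/fl gave 107 and 75. Counting the near-identical miR-466 3p rows once, chosen after seeing the data, gave log2 ratios of the sum of 1.26, 1.47, −0.20 and −0.66. For the replicate block, same-numbered Empty and miR-290~295 libraries deviated with r = 0.28, 0.01 and −0.26, and differently numbered ones with r from −0.38 to 0.39. With 3 libraries a group these values cannot tell whether the numbers pair the libraries. The block gave 22 of 44 members lower. In the first MEF set no paired analysis was possible because the OV and fl/fl columns carry no replicate number of the labels. Low counts limit the members under about 10 reads per library, such as miR-297a-3p in fl/fl.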
